A study of Mus musculus with 29 samples.

Results

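Ide, Btaf1 and Fgfbp3 are 3 neighbouring protein-coding genes of mouse chromosome 19, taken by name from the 54532 genes in the deposited count tables. They were chosen by their CPM levels in these libraries, which earlier results of these data showed stepping between genotypes and between single mice, so their levels and genotype differences are given as a description with no test. The clamp and the cord-region contrasts were not the ground of the choice and were tested. The same library values enter them, so their outcome for the members is not independent of the choice. The working name given to the group was a copy-number-like segment. RNA was measured here and DNA was not, and the genes lying between the members were checked for the same steps.

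Spinal cord RNA was sequenced after aortic cross clamping (ACC), which stops blood flow to the lower cord, or after a sham operation (Sham). At 1 h, wild-type mice labelled C57BL-6J were all clamped, and the thoracolumbar and the cervical cord of the same 3 mice gave 3 libraries each. At 4 h, the thoracic and lumbar cord was taken from wild-type mice (3 ACC, 3 Sham), from global miR-128 knockout mice (miR-128-KO; 4 ACC, 4 Sham) and from mice with miR-155 knocked in to motor neurons (MN-miR-155-KI; 5 ACC, 4 Sham). The 29 libraries come from 26 mice. Both mutant lines are on a C57BL6 background, the sexes were mixed, littermates were split at random between ACC and Sham at 4 h, and ages and the driver of the knock-in are not given in the sources used here.

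IDE, the insulin-degrading enzyme, is a zinc metalloprotease that cuts insulin, amyloid beta and other small peptides. BTAF1 is the vertebrate Mot1-family ATPase that removes the TATA-binding protein TBP from DNA. FGFBP3 is a secreted protein that binds fibroblast growth factors and carries them away from the matrix. Copy number variation that includes Ide and Fgfbp3 has been described within the C57BL/6J strain, which is background and not a measurement made here.

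By the deposited GRCm38 coordinates, Fgfbp3 (ENSMUSG00000047632) lies at chr19:36917550-36919615 on the minus strand. Btaf1 (ENSMUSG00000040565) lies at chr19:36926079-37012752 on the plus strand, and 6463 bases separate it from Fgfbp3, to which it runs head to head. Ide (ENSMUSG00000056999) lies at chr19:37268743-37337852 on the minus strand. The coding transcripts in GENCODE M21 have 2 exons for Fgfbp3, 38 for Btaf1 and 24 for Ide. Btaf1 and Ide are 256 kb apart, and that interval holds Cpeb3, which encodes an RNA-binding translational regulator, and March5, which encodes a mitochondrial ubiquitin ligase.

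The promoter windows of the members are shown because transcripts that move together can be read beside their start sites. Each runs from 250 bases before to 50 bases after the RefSeq start (GRCm38.p6), 5′ to 3′ on the gene's own strand, and capitals mark matches to the motifs listed after the sequences.
Fgfbp3, chr19:36919550-36919849, minus strand: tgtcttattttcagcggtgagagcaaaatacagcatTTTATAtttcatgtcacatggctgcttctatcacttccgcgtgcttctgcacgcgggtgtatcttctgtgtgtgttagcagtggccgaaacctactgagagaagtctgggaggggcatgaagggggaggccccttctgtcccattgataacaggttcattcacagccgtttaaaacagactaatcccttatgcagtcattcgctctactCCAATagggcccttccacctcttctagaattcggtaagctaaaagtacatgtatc
Btaf1, chr19:36925829-36926128, plus strand: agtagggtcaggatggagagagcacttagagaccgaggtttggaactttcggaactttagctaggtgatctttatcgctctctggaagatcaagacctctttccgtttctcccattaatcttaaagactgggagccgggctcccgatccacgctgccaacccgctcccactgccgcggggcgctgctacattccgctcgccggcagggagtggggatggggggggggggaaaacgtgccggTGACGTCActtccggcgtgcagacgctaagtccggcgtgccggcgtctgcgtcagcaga
Ide, chr19:37334495-37334794, minus strand: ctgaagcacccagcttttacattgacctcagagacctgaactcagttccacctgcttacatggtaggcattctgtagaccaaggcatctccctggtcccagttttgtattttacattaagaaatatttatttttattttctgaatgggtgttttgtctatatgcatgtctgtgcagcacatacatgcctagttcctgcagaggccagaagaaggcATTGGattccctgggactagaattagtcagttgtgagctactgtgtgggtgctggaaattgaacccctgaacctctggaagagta

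The motifs were searched on both strands: the cyclic AMP response element TGACGTCA, the CCAAT box CCAAT, the GC box GGGCGG, the TATA box TATAAA and the E-box CACGTG. Btaf1 holds the TGACGTCA motif, found in 1.79% of the 32851 RefSeq promoter windows of the same length. Fgfbp3 and Ide each hold 1 CCAAT, found in 37.4% of windows, and Fgfbp3 holds 1 TATAAA, found in 13.6%. No motif was shared by all members, no matches overlapped, and none held GGGCGG (35.7% of windows) or CACGTG (7.15%). The windows hold 25 CpG dinucleotides for Btaf1, 9 for Fgfbp3 and 0 for Ide, against a median of 7. The RefSeq start of Ide lies 3308 bases inside the deposited gene span, so this window may miss the start used by the longer transcript.

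The libraries held 15596512 to 33056693 counts each, and each gene's count is given as CPM, its share of the library's total in parts per 1000000. Counts were 948 to 3291 for Ide, 421 to 1696 for Btaf1 and 84 to 323 for Fgfbp3, so Fgfbp3 has the widest counting error. Neuron, astrocyte and oligodendrocyte markers were high in all libraries (5 markers each, summed 4531 to 6164, 4841 to 7496 and 28202 to 41513 CPM), and the 5 motor neuron markers summed to 146 to 329 CPM. Markers of Schwann cells and dorsal root ganglion varied most, from 1.14 to 234 CPM over 5 markers. The library labelled miR-128-KO ACC 1 had the heat shock transcript Hspa1b at 2.78 CPM, within the range of 1.60 to 4.42 CPM of the Sham libraries, and was left out of the tests as in the study. At 1 h the thoracolumbar library of mouse 3 had Hspa1b at 3.39 CPM, where the highest thoracolumbar library had 386 CPM. The miR-155 host transcript Mir155hg was at 0.38 to 1.56 CPM in MN-miR-155-KI libraries and at no more than 0.29 CPM in the others. In bulk RNA, a change in the number of cells of a type and a change in RNA per cell cannot be told apart.

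Ide showed 2 separate levels. Of the 29 libraries, 17 lay between 51.2 and 60.8 CPM and 12 between 98.3 and 121.5 CPM, with nothing between, a gap of 1.62-fold where the next largest gap between neighbours in the order was 1.05-fold. The upper level held all 9 MN-miR-155-KI libraries, the wild-type Sham 1 library, and both libraries of wild-type mouse 3 at 1 h. The lower level held all 8 miR-128-KO libraries, the 3 wild-type ACC libraries at 4 h, wild-type Sham 2 and 3, and mice 1 and 2 at 1 h. So the level went with genotype in the mutant mice and differed between single mice of the same group in the wild type.

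In MN-miR-155-KI mice Ide was at 103.7, 102.7, 98.3 and 111.6 CPM in Sham (104.1 ± 5.50, SD, n = 4). The clamped mice of that genotype had 110.3, 100.9, 108.8, 111.0 and 115.3 CPM (109.3 ± 5.28, SD, n = 5). Both groups were tight and overlapped each other. In miR-128-KO mice Ide was at 51.2, 52.0, 59.9 and 59.7 CPM in Sham (55.7 ± 4.74, SD, n = 4) and at 55.3, 51.4, 52.2 and 55.7 CPM in ACC (53.6 ± 2.19, SD, n = 4). No library of one mutant line reached the other line. The wild-type ACC libraries had 56.0, 55.5 and 55.8 CPM (55.8 ± 0.242, SD, n = 3), the narrowest spread of any group in unscaled CPM. With TMM scaling they were at 56.3, 53.7 and 56.3 CPM, so that narrowness depends on the scaling.

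Wild-type Sham was the group that split. Ide was at 106.1 CPM in Sham 1 (Wilson 95% interval 101.8 to 110.5), 57.6 CPM in Sham 2 (54.4 to 60.9) and 55.6 CPM in Sham 3 (52.7 to 58.6). These intervals cover counting error only and lie far apart, and the group mean of 73.1 ± 28.6 CPM (SD, n = 3) describes none of the 3 mice. At 1 h the split followed the animal and not the cord region. Mouse 3 had 121.5 CPM in the thoracolumbar and 112.2 CPM in the cervical cord, mouse 1 had 60.0 and 60.8, and mouse 2 had 54.9 and 57.7.

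**Figure D1:**
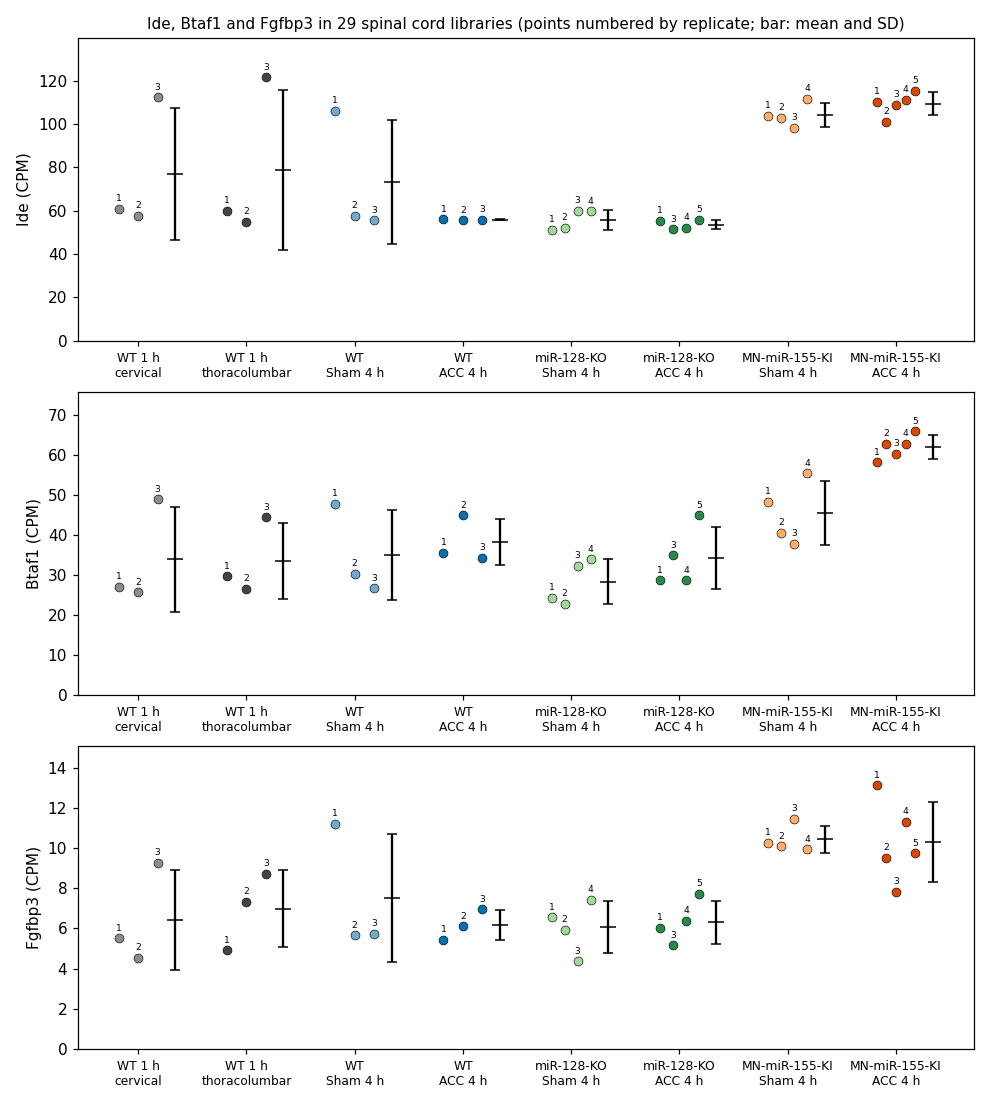
CPM of Ide, Btaf1 and Fgfbp3 in each of the 29 libraries by group, points numbered by replicate, with the group mean and SD beside them. Ide sits at 51.2 to 60.8 or at 98.3 to 121.5 CPM with no library between, while Fgfbp3 is higher in those upper 12 without an empty interval and Btaf1 overlaps, with its lowest value among them at 37.8 CPM and its highest among the others at 44.9 CPM.

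Btaf1 was mostly higher in the same mice but overlapped. Its lowest value at the upper Ide level was 37.8 CPM and its highest at the lower Ide level 44.9 CPM. Its range was 22.7 to 65.8 CPM, and its largest gap was 1.13-fold. The MN-miR-155-KI ACC libraries had 58.1, 62.7, 60.3, 62.7 and 65.8 CPM (61.9 ± 2.91, SD, n = 5), above every other library. The Sham mice of that genotype had 48.2, 40.5, 37.8 and 55.3 CPM (45.4 ± 7.94, SD, n = 4). The miR-128-KO mice had 24.3, 22.7, 32.2 and 33.9 CPM in Sham (28.3 ± 5.57, SD, n = 4), all below the MN-miR-155-KI Sham libraries. Their ACC libraries had 28.6, 34.9, 28.6 and 44.9 CPM (34.2 ± 7.67, SD, n = 4). That last value, in ACC 5, overlaps the MN-miR-155-KI Sham range.

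Among wild-type mice, Btaf1 followed Ide in the mice that stood apart. Sham 1 had 47.8 CPM, against 30.3 in Sham 2 and 26.7 in Sham 3. At 1 h, mouse 3 had 44.4 CPM in the thoracolumbar and 48.9 in the cervical cord, against 25.6 to 29.6 CPM in mice 1 and 2. The wild-type ACC libraries at 4 h, all at the lower Ide level, had Btaf1 at 35.5, 44.9 and 34.3 CPM (38.2 ± 5.81, SD, n = 3). All lie above wild-type Sham 2 and 3, and the highest reaches into the range of the mice at the upper Ide level. Of the 12 libraries highest in Ide, 10 were among the 12 highest in Btaf1.

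Fgfbp3 was the least abundant member, at 4.37 to 13.1 CPM. The MN-miR-155-KI libraries had 10.2, 10.1, 11.4 and 9.94 CPM in Sham (10.4 ± 0.686, SD, n = 4) and 13.1, 9.50, 7.82, 11.3 and 9.74 CPM in ACC (10.3 ± 2.00, SD, n = 5). The miR-128-KO libraries had 6.55, 5.93, 4.37 and 7.42 CPM in Sham (6.07 ± 1.29, SD, n = 4) and 6.02, 5.15, 6.36 and 7.72 CPM in ACC (6.31 ± 1.07, SD, n = 4). The mutant lines did not overlap, though the lowest knock-in and the highest knockout library, 7.82 and 7.72 CPM, nearly met. Wild-type Sham 1 had 11.2 CPM (Wilson 95% interval 9.86 to 12.7), Sham 2 had 5.65 (4.71 to 6.77) and Sham 3 had 5.74 (4.86 to 6.78). Wild-type ACC libraries had 5.45, 6.10 and 6.94 CPM (6.16 ± 0.750, SD, n = 3). At 1 h, mouse 3 had 8.72 CPM in the thoracolumbar and 9.26 in the cervical cord, and the 4 libraries of the other mice ranged from 4.55 to 7.33. The 12 libraries highest in Ide were also the 12 highest in Fgfbp3, but the step from the twelfth to the next was only from 7.82 to 7.72 CPM.

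Per kilobase of the deposited gene length, the levels were 8.79 to 20.9 CPM per kb for Ide, 3.16 to 9.14 for Btaf1 and 2.46 to 7.40 for Fgfbp3. Ide was the most abundant member per length in every group. The group mean for Btaf1 was above that for Fgfbp3 in all 8 groups, with ranges that overlap in several.

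As fitted log2 differences between groups, MN-miR-155-KI minus miR-128-KO in Sham came to 0.89 for Ide (SE 0.13), 0.68 for Btaf1 (SE 0.17) and 0.77 for Fgfbp3 (SE 0.20). In ACC, in other mice, the same differences were 1.03 (SE 0.14), 0.76 (SE 0.18) and 0.66 (SE 0.21). Against wild-type ACC, MN-miR-155-KI ACC was higher by 0.98 for Ide (SE 0.14), 0.71 for Btaf1 (SE 0.18) and 0.74 for Fgfbp3 (SE 0.21). The corresponding Sham differences from wild type were 0.51 (SE 0.15), 0.38 (SE 0.18) and 0.47 (SE 0.21), where the wild-type group includes Sham 1. The fold of MN-miR-155-KI over miR-128-KO was 1.86 in Sham and 2.04 in ACC for Ide, 1.60 and 1.70 for Btaf1, and 1.70 and 1.58 for Fgfbp3. The estimates for Btaf1 and Fgfbp3 lay below those for Ide in each of these contrasts, and the standard errors overlap in part. Comparisons that share a group share its mice and are not independent.

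In the main edgeR fit, genotype was not called for any tested gene around or between the members. Of 41 genes within 1000 kb of the members on either side, 38 are not members, and 21 of those passed the low-count filter at 4 h. None of the 21 was called at an adjusted p under 0.05 for genotype in Sham or in ACC by edgeR's quasi-likelihood F test, where 0.0868% and 0.107% of all 19581 genes tested were called. At an unadjusted p under 0.05 there were 3 and 2 of the 21, against 1345 and 1554 of all 19581 genes. With so few calls among all genes, 0 of 21 is near the background. The differences at the neighbours are therefore given with their errors.

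March5, between Btaf1 and Ide, was at 62.5 to 72.8 CPM in all 29 libraries. Its log2 difference of MN-miR-155-KI minus wild type in ACC was 0.01 (SE 0.063), and of MN-miR-155-KI minus miR-128-KO in Sham −0.02 (SE 0.061). In the wild-type Sham mice it was at 68.5, 64.3 and 68.6 CPM, and in mouse 3 at 1 h at 67.9 and 69.7 CPM. So the mice that stood apart in Ide did not stand apart in March5. Cpeb3, the other gene between the members, ranged from 62.8 to 106.7 CPM, with differences of 0.08 (SE 0.14) and 0.01 (SE 0.13) in the same contrasts. In wild-type Sham mice Cpeb3 had 84.9, 73.8 and 83.9 CPM, with Sham 1 beside Sham 3. Cpeb3 and March5 overlap on opposite strands, and how the counting treated strand is not stated, so some reads could be shared between them.

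On the outer sides, Tnks2, which encodes a tankyrase, ends 24.1 kb before Fgfbp3 and was at 140.1 to 185.3 CPM in all libraries. Its adjusted p was 0.904 for genotype in Sham and 0.896 in ACC (edgeR). Kif11, a mitotic kinesin beyond Ide, was at 1.37 to 8.59 CPM with adjusted p of 0.959 and 0.801, and Hhex, a homeobox factor, at 0.25 to 1.86 CPM with 0.973 and 0.891. The log2 difference of MN-miR-155-KI minus wild type in ACC was 0.46 for Kif11 (SE 0.39) and −0.22 for Hhex (SE 0.49).

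Ppp1r3c, which encodes a subunit that targets protein phosphatase to glycogen, was the neighbour nearest the threshold, and its order of genotypes differed from that of the members. It was at 116.9, 123.5, 136.0 and 124.3 CPM in miR-128-KO Sham and at 84.2, 90.1, 93.7 and 77.0 CPM in MN-miR-155-KI Sham, without overlap. Wild-type Sham mice had 105.4, 115.8 and 86.0 CPM, so Sham 1 lay between the others. The edgeR adjusted p was 0.248 in Sham and 0.0614 in ACC. DESeq2 called it in both, at an adjusted p of 0.0191 and 0.000407, and edgeR called it in ACC with the library miR-128-KO ACC 1 added (0.00832). It was also called in ACC in 4 of 22 edgeR fits that left out 1 library. Over all alternatives tried, its adjusted p in ACC ran from 0.000407 to 0.387.

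Inside Ide, on the same strand, lies the pseudogene Rpl10-ps6, with at most 25 counts in any library. Its fitted differences were 1.58 (SE 0.53) for MN-miR-155-KI minus wild type in ACC and 1.03 (SE 0.43) for MN-miR-155-KI minus miR-128-KO in Sham. It did not pass the test (adjusted p 0.538 in ACC and 0.722 in Sham, edgeR). Its reads and those of Ide come from overlapping positions and may not be separable.

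**Figure D2:**
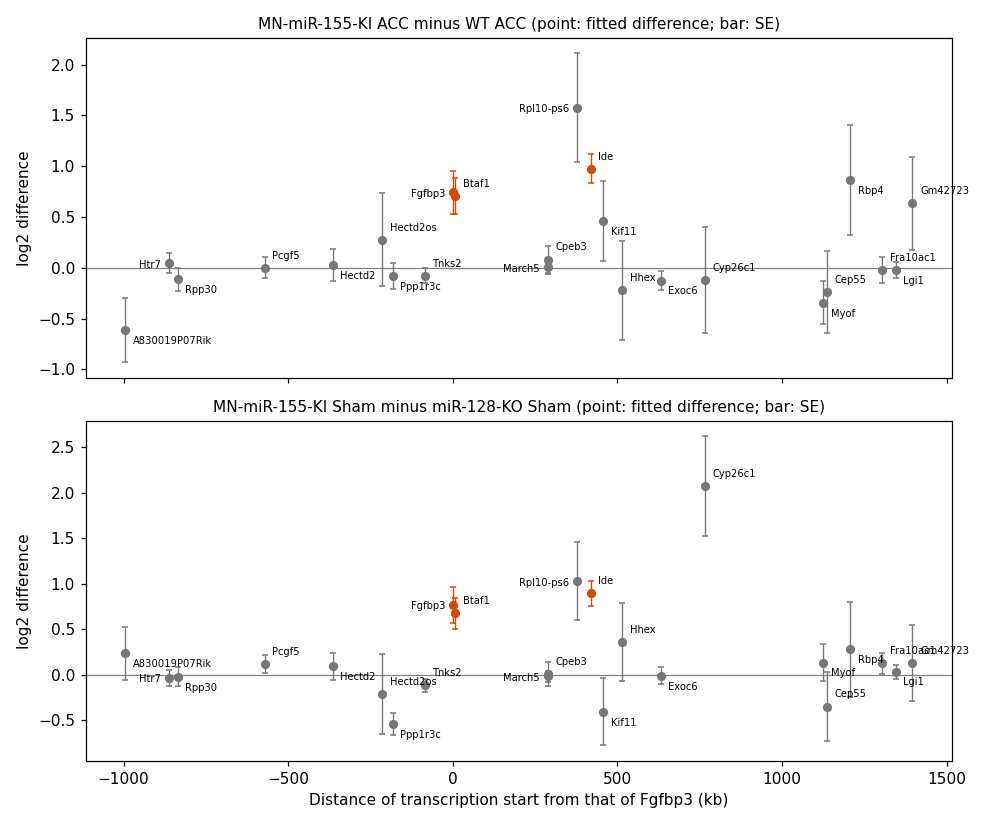
Fitted log2 differences (points) with SE (bars) for the 24 tested genes of the neighbourhood, against the distance in kb of the transcription start from that of Fgfbp3. The upper panel shows MN-miR-155-KI minus wild type in ACC and the lower MN-miR-155-KI minus miR-128-KO in Sham; the members are in orange at 0.68 to 0.98, and March5 and Cpeb3 between them lie at -0.02 to 0.08.

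The label of a segment is therefore not borne out as 1 unbroken block of raised transcripts. Fgfbp3 and Btaf1, which adjoin, and Ide were higher together, while March5 between them was level. Whether the number of DNA copies differed was not tested.

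**Figure D3:**
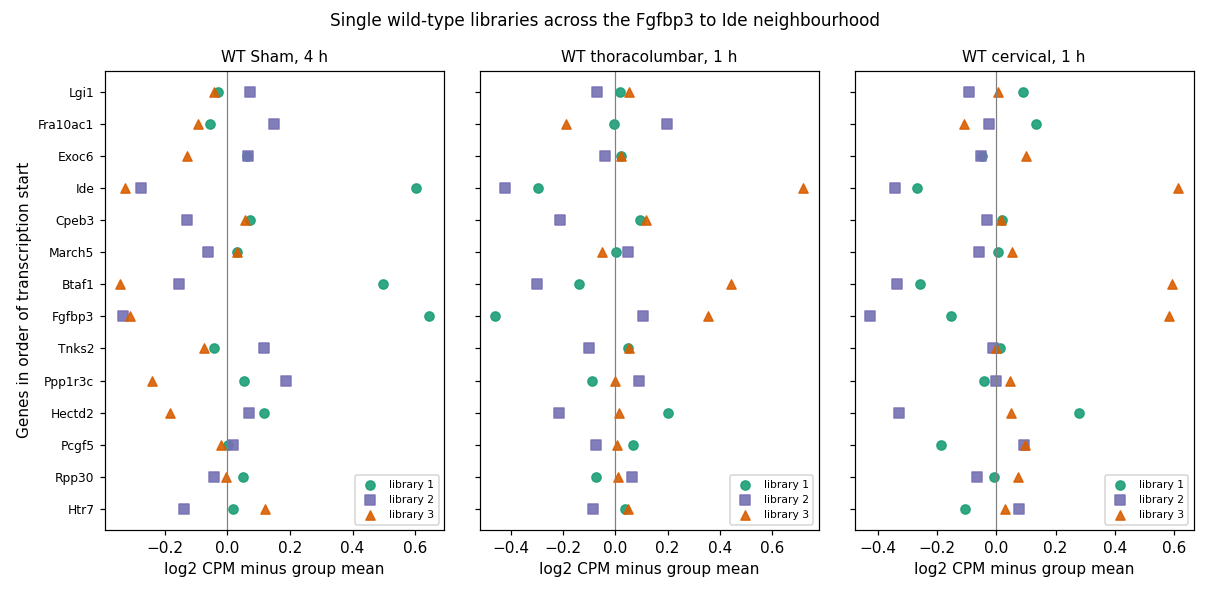
Log2 CPM minus the group mean (horizontal axis) for single wild-type libraries, for neighbourhood genes with a mean of at least 5 CPM, ordered by transcription start (vertical axis). Ide, Btaf1 and Fgfbp3 are displaced to the right in Sham 1 and in both libraries of mouse 3 at 1 h. In those libraries March5, Cpeb3 and Tnks2 lie nearer the group mean, on either side of it.

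Within groups, the members' likeness was measured as Pearson's r of log2 CPM deviations from the group mean over the 23 libraries at 4 h, as a description. It was 0.72 for Ide and Btaf1, 0.59 for Ide and Fgfbp3 and 0.36 for Btaf1 and Fgfbp3. Btaf1 ranked 5 of 19580 genes by likeness to Ide, and Fgfbp3 ranked 35. The relation rests largely on 1 library. Without wild-type Sham 1 the values were 0.64, −0.01 and 0.00. Each remaining group lies at a single Ide level, so these values cannot show whether Fgfbp3 steps with Ide. Within those levels Ide and Btaf1 still varied together. No shared variation with Fgfbp3 was seen at its counts of 84 to 323. For the genes between and beside the members, r to Ide was 0.03 for Cpeb3, 0.05 for March5, 0.07 for Tnks2 and −0.01 for Kif11.

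The 5 genes most like Ide were Gm45887 (r 0.77), Ccl21b (0.76), Gm10288 (0.73), Tceanc2 (0.73) and Btaf1 (0.72), each over 23 libraries that include Sham 1. Those most like Btaf1 were 4732440D04Rik (0.83), Prkci (0.82), Nup160 (0.81), Ears2 (0.79) and Trim33 (0.78). Those most like Fgfbp3 were Bmi1 (0.80), Gm14379 (0.77), Tmem28 (0.77), Ankub1 (0.76) and Clic5 (0.76). Apart from Btaf1 none lies on chromosome 19. The neighbour Hectd2 ranked 17 by likeness to Btaf1 (r 0.74), and Cyp26c1, at no more than 1.22 CPM, had r of −0.61 to Ide and −0.70 to Fgfbp3.

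Ccl21b, a T-cell chemokine gene with near-identical copies that counting may not separate, was at most 0.70 CPM. It had no count in 11 libraries, of which 8 were all the miR-128-KO libraries and the others were wild-type Sham 2 and 3 and MN-miR-155-KI Sham 3. The other 8 MN-miR-155-KI libraries, wild-type Sham 1, the wild-type ACC libraries and all 1 h libraries had counts.

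Genes known to differ among C57BL/6 substrains were read in the same libraries. A difference between substrains in a gene need not show in its transcript level. Gabra2, a GABA receptor subunit with a known intronic deletion in C57BL/6J, was at or below 65.7 CPM in 19 libraries and at or above 119.7 CPM in 10. No library at the upper Ide level was at the upper Gabra2 level. The 17 libraries at the lower Ide level included 7 at the lower and 10 at the upper Gabra2 level. The latter 10 were all 8 miR-128-KO libraries and wild-type Sham 2 and 3. Wild-type Sham 1 therefore differed from its group in both genes, while the wild-type ACC libraries and mice 1 and 2 at 1 h had both genes low. Wdfy1, an endosomal adaptor, was at 14.1 to 19.7 CPM in the 12 libraries of the upper Ide level and at 14.1 to 64.5 CPM over all libraries. Low values also occurred at the lower Ide level. The wild-type ACC libraries had 17.3 to 18.1 CPM, and mice 1 and 2 at 1 h had 14.8 to 16.9 CPM. Sham 2 of miR-128-KO had 15.4 CPM, with Gabra2 at 170.6 CPM. The rest of the lower Ide level had Wdfy1 at 29.2 CPM or more.

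Nnt, the mitochondrial transhydrogenase gene that C57BL/6J mice lack in part, was at no more than 0.87 CPM in any library, and Entpd4 at no more than 0.50 CPM. Crb1 ranged from 1.14 to 3.07 CPM and Cyfip2 from 449 to 608 CPM. How these differences arose was not tested.

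**Figure D4:**
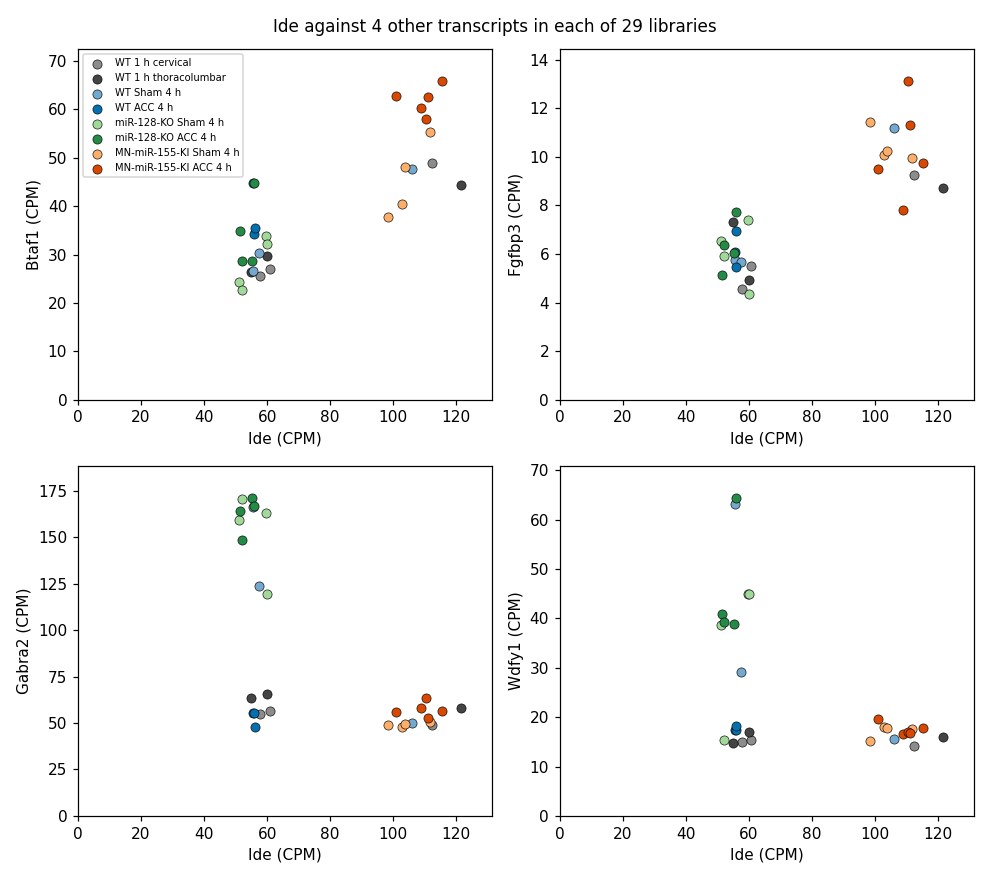
Ide CPM (horizontal axis) against Btaf1, Fgfbp3, Gabra2 and Wdfy1 CPM (vertical axes) in each of the 29 libraries, coloured by group. In the 12 libraries at 98.3 to 121.5 CPM of Ide, Fgfbp3 is at 7.82 CPM or more, against 7.72 or less in the others. Btaf1 overlaps between 37.8 and 44.9 CPM, and Gabra2 is at or below 63.6 CPM in all 12.

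Ide and Fgfbp3 did not pass the test for the clamp at 4 h, and Btaf1 passed it with genotype as a term and not in the pooled fit. Over 11 ACC and 11 Sham libraries, the log2 difference of ACC minus Sham was 0.43 for Btaf1 (SE 0.18), with an edgeR adjusted p of 0.106. This is the study's own comparison, which pools genotypes, and Btaf1 missed the threshold there. With genotype as a term the difference was 0.35 (SE 0.10) and passed, at an adjusted p of 0.0205. Without wild-type Sham 1 as well, an alternative chosen after seeing the data, it was 0.43 (SE 0.079, adjusted p = 0.000425). In the pooled fit 16.4% of 17759 genes were called, and 9.37% of the 17759 were called as higher in ACC. With genotype as a term these were 16.9% and 9.69%, and without Sham 1 as well 15.2% and 8.89%, so a call is common among all genes. With genotype and replicate number as a block the Btaf1 difference was 0.26 and was not called (adjusted p 0.121, edgeR). The labels do not say whether the numbers pair these mice.

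Within genotypes, the Btaf1 difference of ACC minus Sham was 0.46 in MN-miR-155-KI mice (SE 0.16), without overlap between the groups. It was 0.38 in miR-128-KO mice (SE 0.18) and 0.14 in wild type (SE 0.20), both with overlap. How many of all genes separate ACC from Sham in this way was not counted. In the pooled fit 16.4% of genes were called for the clamp, so the separation is not read as particular to Btaf1. The difference between genotypes was itself not called (adjusted p 0.992, unadjusted p 0.445, edgeR). In the wild type, Sham 1 is the highest of the Sham values at 47.8 CPM, and the lowest ACC value, 34.3 CPM, lies above Sham 2 and 3.

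For Ide the pooled difference was 0.04 (SE 0.21, adjusted p = 0.931), and for Fgfbp3 0.02 (SE 0.18, adjusted p = 0.955). With genotype as a term they were −0.08 (SE 0.088, adjusted p = 0.579) and −0.05 (SE 0.12, adjusted p = 0.840), so the sign turned. Without Sham 1 as well, Ide was at 0.02 with an SE of 0.039 (adjusted p = 0.777) and Fgfbp3 at 0.06 with an SE of 0.097 (adjusted p = 0.764). The narrower SE for Ide goes with the removal of the library at the other level. For the clamp effect by genotype Ide had an unadjusted p of 0.0895 and an adjusted p of 0.992. No gene of 19581 was called there by edgeR, 618 had an unadjusted p under 0.05, and DESeq2 called 1.

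The ratio of Btaf1 to Ide CPM within a library was also read, as a description. It was 0.450 to 0.527 in wild-type Sham and 0.614 to 0.808 in wild-type ACC. In MN-miR-155-KI mice it was 0.384 to 0.496 in Sham and 0.526 to 0.622 in ACC, again without overlap. The share of all genes whose ratio to Ide separates in this way was not counted. The miR-128-KO libraries had 0.437 to 0.568 in Sham and 0.517 to 0.805 in ACC, with overlap, the 0.517 being the library ACC 1 that was left out of tests. Fgfbp3 to Ide showed no such difference, at 0.0729 to 0.128 in miR-128-KO Sham and 0.100 to 0.139 in ACC, and 0.0891 to 0.116 and 0.0719 to 0.119 in MN-miR-155-KI. Wild-type Sham 1 had ratios of 0.450 and 0.106, close to those of Sham 2 (0.527 and 0.0982) and Sham 3 (0.480 and 0.103). The members were thus higher in Sham 1 in roughly similar proportion, with Btaf1 per Ide the lowest of that group. At 1 h the thoracolumbar library of mouse 3 had ratios of 0.365 and 0.0718. Both lie below those of mouse 1 (0.494 and 0.0819) and mouse 2 (0.482 and 0.133). Its cervical library had 0.436 and 0.0825, against 0.444 and 0.0907 in mouse 1 and 0.444 and 0.0788 in mouse 2.

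Among the neighbours, 4 of 20 tested were called for the clamp, near the background of 16.4%. Hectd2, a ubiquitin ligase gene, rose by 0.67 (SE 0.089, adjusted p = 2.6e-06), and Pcgf5, of a Polycomb complex, rose by 0.23 (SE 0.059, adjusted p = 0.00664). Hhex fell by 0.79 (adjusted p = 0.0373), and Lgi1, a synaptic secreted protein gene, fell by 0.14 (adjusted p = 0.0399). Hhex and Lgi1 lost the call in 12 and 16 of 22 fits that left out 1 library. Hectd2 overlaps Hectd2os on the other strand, so its reads could include the antisense gene's. March5 was at 0.05 (SE 0.034, adjusted p = 0.405) and Cpeb3 at −0.02 (SE 0.078, adjusted p = 0.921).

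Thoracolumbar and cervical cord of the same clamped mice did not differ detectably in any member at 1 h. The difference was −0.0048 for Ide (SE 0.48), −0.06 for Btaf1 (SE 0.38) and 0.07 for Fgfbp3 (SE 0.30), with edgeR adjusted p of 0.998, 0.985 and 0.976, where 0.438% of 17810 genes were called. Mouse 3 is high in both regions and widens the SE. Steps between single mice led to the choice of the members, so the region result is not independent of it. Its thoracolumbar library, kept in the test, had Hspa1b at 3.39 CPM and no count of the chemokine transcript Ccl3. The thoracolumbar libraries of mice 1 and 2 had Hspa1b at 386 and 353 CPM. No member was called when any 1 library was left out (lowest adjusted p 0.847 for Ide, 0.900 for Btaf1 and 0.876 for Fgfbp3, edgeR). With the mouse as a block the SE fell to 0.076, 0.090 and 0.19, with differences of −0.02, −0.02 and 0.11 and no call (adjusted p 0.971, 0.976 and 0.939), where 0.444% of genes were called. Within animals the thoracolumbar minus cervical log2 differences for Ide were −0.02, −0.07 and 0.11 in mice 1, 2 and 3. For Btaf1 they were 0.13, 0.05 and −0.14, and for Fgfbp3 −0.17, 0.69 and −0.09. The gap between mouse 3 and the others was larger than any difference between regions for Ide and Btaf1.

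In the authors' deposited table for the 4 h comparison, turned to ACC minus Sham, the log2 fold changes are 0.43 for Btaf1 (adjusted p 0.0856), 0.04 for Ide (adjusted p 0.943) and 0.02 for Fgfbp3 (adjusted p 0.964). The unadjusted p of Btaf1 in that authors' deposited table is 0.0146. In the authors' deposited table of clamped mice with high against low chemokine levels, the high minus low values are −0.38 for Ide, −0.18 for Btaf1 and −0.13 for Fgfbp3, none near the threshold. By the labels the clamped mice at 4 h come from all 3 genotypes. The labels do not say which mice fell in each chemokine group, so genotype may differ beside the chemokine level.

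The genes that act with each member were read from lists by role. Of 15 tested IDE substrates and related proteases, 1 rose and 2 fell after the clamp, with a median of −0.0019 against −0.0097 for all genes. Ece1, an endothelin-converting enzyme, rose by 0.35 (SE 0.063, adjusted p = 0.000202, edgeR). Its relative Ece2 fell by 0.49 (adjusted p = 0.00139), and the insulin receptor gene Insr fell by 0.17 (adjusted p = 0.0428). Insr did not pass in 11 of the 22 leave-one-out fits, nor with miR-128-KO ACC 1 added (adjusted p 0.0524).

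Among 19 tested genes of the TBP cycle and TFIID, with which BTAF1 acts, 1 rose and 1 fell, with a median of −0.02. Taf3 rose by 0.19 (adjusted p = 0.0193) and Taf6 fell by 0.18 (adjusted p = 0.0233), both subunits of TFIID. Both calls were lost with the replicate block (adjusted p 0.120 and 0.123). Among 18 tested FGF ligands, receptors and binding proteins, 2 rose and 3 fell, with a median of 0.02. The receptor gene Fgfr3 fell by 0.26 (adjusted p = 5.8e-06) and Fgfr2 rose by 0.35 (adjusted p = 0.00167). Fgf14 fell by 0.23 (adjusted p = 0.0146) and Fgf13 by 0.13 (adjusted p = 0.0290), both coding for intracellular FGF-like proteins that bind sodium channels. Both calls were lost with the replicate block (adjusted p 0.112 and 0.160, edgeR). Fgf13 was also not called without the low-count filter (adjusted p 0.0622), with genotype as a term and without wild-type Sham 1 (0.0653), or in 5 of the 22 leave-one-out fits. Those 5 left out wild-type ACC 3, wild-type Sham 1, miR-128-KO Sham 1, MN-miR-155-KI ACC 4 or MN-miR-155-KI Sham 3, with adjusted p up to 0.0553. The lists had 3 of 15, 2 of 19 and 5 of 18 genes called for the clamp, where 16.4% of all genes were called.

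None of the list genes was called for genotype in Sham or ACC or for the clamp effect by genotype (16 tested in the IDE list, 19 in each of the others), where 0.0868%, 0.107% and 0% of all genes were called. In the region contrast at 1 h, 0 of 15, 0 of 19 and 1 of 18 were called, where 0.438% of all genes were. Fgf1 was lower in thoracolumbar than in cervical cord by 0.39 on the log2 scale (SE 0.065, adjusted p = 0.00789, edgeR). The call was lost without the cervical library of mouse 3 (adjusted p 0.0716), and over the 10 alternatives tried the adjusted p ran from 2.27e-06 to 0.0716.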

How the data were processed

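Poly-A RNA libraries made with dUTP for direction were sequenced, cleaned with fastp, aligned with HISAT2 2.0.5 to GRCm38 and counted with featureCounts 1.5.0-p3, per the labels' protocols and the submitters' processing notes; the annotation release and strand setting are not given in the sources used here. The deposited tables hold whole-number counts per gene, unnormalized, with the 1 h and 4 h libraries in separate tables that were scaled and tested apart. The authors' deposited comparison tables give log2 fold changes with p-values from DESeq2, per the file headers; they are quoted where named and not recomputed. A spreadsheet had turned 27 symbols to dates, and March5 was restored by its gene identifier.

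CPM is the count over the library's total; log2 CPM used a prior count of 2. Tests used edgeR 4.0.16 in R 4.3.3 (TMM scaling, filterByExpr with a minimum count of 10, robust quasi-likelihood), with Benjamini-Hochberg adjustment over all genes tested and a threshold of 0.05. Simulated counts with 200 genes changed by 2-fold, drawn only from genes above a minimum expected count, gave 100% recovery for the clamp test over 17759 genes. Recovery was 94% for genotype in Sham, 98% for genotype in ACC and 88.5% for the clamp effect by genotype, each over 19581 genes, and 95% for the 1 h regions over 17810 genes. Unchanged genes called numbered 6 to 16 per test. No smaller change, and no change in a low-count gene, was simulated. DESeq2 1.42.0 was an alternative, as were other scaling, no filter, replicate blocks and leaving out each library. No library columns were identical. Total counts were 15596512 to 33056693. Wilson intervals (95%) cover counting error only.

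The members and lists were chosen with earlier results of these data known. Genes named were the members, tested neighbours within 1000 kb, the 5 genes most like each member, and genes known to differ among C57BL/6 substrains. List genes past the threshold were also named, up to 4 a list. Neighbour values are given for those between the members, the 2 nearest on each side and any near a genotype call. Other neighbours named were picked after their values were seen. At 1 h both regions came from the same 3 mice by the labels, so the mouse block is a pairing by design, although the deviations of same-mouse libraries barely correlated (r 0.01, 0.01 and 0.03). At 4 h each library is a separate mouse.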

Additional observations from a re-analysis of the deposited data

Results flagged for a closer look

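Among 36 checks of a single library far from the rest of its group (members and 6 neighbours in groups of 4 or 5 libraries), 1 stood apart: March5 in miR-128-KO Sham 3 was at 63.3 CPM, where the other 3 libraries of the group lay at 67.7 to 68.0 CPM. Chance alone is expected to mark about 1 in 20 groups. No member stood apart by this measure, since the wild-type groups that split hold 3 libraries each and were not checked. A difference of the clamp effect between genotypes was not called for any member or neighbour by edgeR's interaction test. That test called 0 of all 19581 genes, so this equals the background.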

How the results depend on the processing

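Counts of called genes moved with the method. The replicate block over genotype and number gave 1859 clamp calls against 2914. Genotype calls in Sham were 17, then 31 with no low-count filter and 82 by DESeq2; in ACC 21, then 42 with no filter, 54 with miR-128-KO ACC 1 added and 92 by DESeq2. DESeq2 gave 1 call for the clamp effect by genotype against 0. The 78 region calls became 272 with no filter and 128 by DESeq2. Leaving out 1 library gave 6 to 20 calls in Sham (6, 7, 9 and 11 without miR-128-KO Sham 4, 2, 3 and 1, and 9 without MN-miR-155-KI Sham 3), 11 to 36 in ACC (11 without miR-128-KO ACC 3 or 5, 13 without wild-type ACC 1, 36 without MN-miR-155-KI ACC 4), 0 to 2 for the clamp effect by genotype (2 without wild-type Sham 1) and 34 to 142 at 1 h (34 without cervical 3, 46 and 142 without thoracolumbar 2 and 3). The cause was not tested.

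The clamp difference of Ide turned to −0.00046 with miR-128-KO ACC 1 added, −0.084 with genotype as a term and −0.11 with the replicate block, and ran from −0.029 to 0.096 without 1 library. For Fgfbp3 these were −0.013, −0.047, −0.063 and −0.068 to 0.089. Neither was called in any of these fits. The Btaf1 difference stayed positive in all of them and was called with genotype as a term, with and without wild-type Sham 1. At 1 h Ide was at 0.0032 by DESeq2 and −0.46 to 0.38 without 1 library, Btaf1 at −0.31 to 0.32 and Fgfbp3 at −0.15 to 0.45. Likeness of Ide and Btaf1 was 0.64 to 0.76 without 1 library and 0.84 without centring, which spans the separate levels of Ide. It was 0.97 in the 6 libraries of 3 mice at 1 h. The value at 1 h rests on mouse 3, both of whose libraries were high in Ide and Btaf1. Likeness of Ide and Fgfbp3 ran from −0.0070 to 0.73 without 1 library. TMM scaling moved no Ide group mean by more than the group's SD except wild-type ACC (55.4 CPM).

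The labels do not say whether the replicate numbers at 4 h pair the mice. Deviations of same-numbered libraries correlated at −0.23 to 0.14. Known same-mouse pairs at 1 h barely correlated either (r 0.01 to 0.03), so this measure cannot decide it. With genotype and replicate number as a block, Lgi1, Taf3, Taf6, Fgf14 and Fgf13 lost their clamp calls. With the mouse as a block at 1 h, the pairing gave 79 calls and no member changed its call. Counts of 84 to 323 limit what can be seen of Fgfbp3.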
